A study of Mus musculus with 2 samples.

Results

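The insulin-like growth factor genes examined here are 10 genes: the ligands Igf1 and Igf2, the receptors Igf1r and Igf2r, and the binding proteins Igfbp2, Igfbp3, Igfbp4, Igfbp5, Igfbp6 and Igfbp7. They were taken by name, and every probe set whose only gene symbol in the platform annotation was one of these was used. This gave 28 of 34945 probe sets with 1 symbol, and 10 of 18193 genes. A probe set is a group of short array probes made to read a stretch of a transcript, and some probe sets can read more than 1 transcript. The cells were C2C12, a mouse myoblast line, differentiated into myotubes for 5 days in 2% horse serum. In the first group they carried a hairpin RNA against Lrrfip1 (shLrrfip1a), and in the second a control hairpin (spelled shLCUI in the sample labels and shLUCI in the design text). Each group was 1 Affymetrix array of total RNA. How the hairpins were delivered, and whether the cells were 1 clone or a pool, is not stated in the labels. With 1 array per group no difference has a replicate check, so each one is a description of these 2 arrays with no p-value.

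IGF1 and IGF2 are secreted peptides that drive growth and differentiation of muscle cells, which make both of them in culture. They act mainly through IGF1R, a receptor tyrosine kinase that signals through IRS proteins, PI3-kinase and AKT, while IGF2R binds IGF2 and carries it to lysosomes for breakdown. The binding proteins hold the ligands outside the cell, prolong their life and keep them from the receptor, or release them near it after cleavage by proteases.

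Deposited intensities had a median of 53.5 on the shLrrfip1a array and 51.4 on the control array. Lrrfip1 was lower on all 3 of its probe sets, at 62.2% to 70.6% of the control intensity. Differences below are log2(intensity + 16), shLrrfip1a minus control, and 1 on this scale is 2-fold. A gene was represented by its brightest probe set, by the mean over both arrays. It was counted when that probe set's mean level exceeded an intensity of 52.5, the array-wide median. All 10 genes passed this level filter, and 25 of their 28 probe sets did. In bulk RNA, a smaller share of cells making a transcript and less transcript per cell cannot be told apart.

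Both ligands were higher in shLrrfip1a cells, both receptors were lower, and the binding proteins were split. Igfbp3 stood furthest out, at 613 in shLrrfip1a cells against 97.9 in control cells. It was the 1 gene of 10 that was at least 2-fold higher, and 0 of 10 were at least 2-fold lower on the representing probe set. Among all 11439 genes above the filter, the shares of that size were 0.664% higher and 0.691% lower. At the smaller size of 1.5-fold, Igfbp3, Igf1 and Igf2 were higher and Igfbp2 was lower, 3 and 1 of 10 genes, where the shares of all genes were 2.34% and 2.47%. The median difference of the 10 genes was -0.11, with 5 above 0 and 5 below, beside a median of 0.0043 over all genes. Their mean was 0.27, of the opposite sign to the median. With spike-in scaling the median of the 10 genes was 0.05 and that of all genes 0.16.

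**Figure D1:**
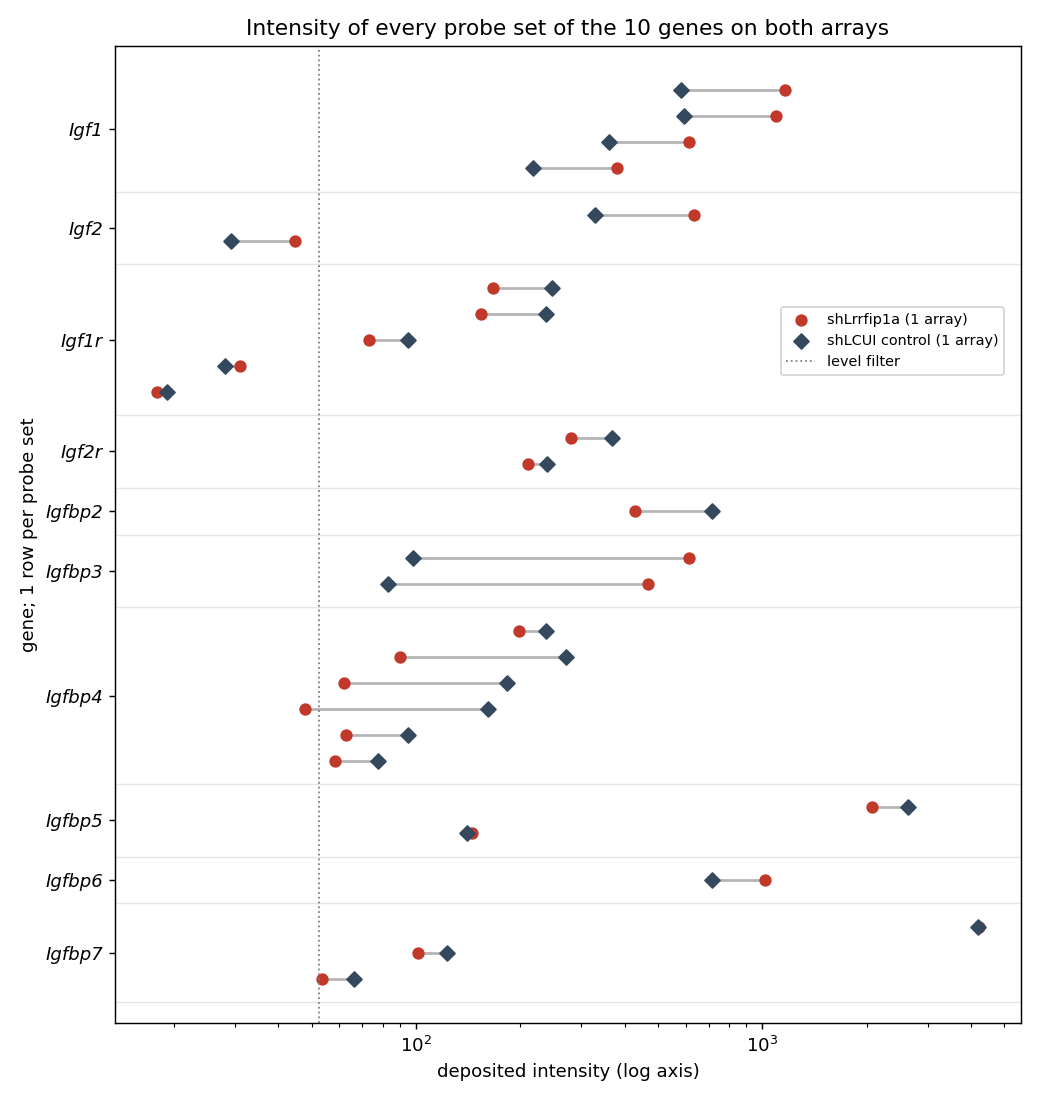
Deposited intensity (log axis) of the 28 probe sets of the 10 genes, 1 row each, on the shLrrfip1a array (circles) and the control array (diamonds), with a dotted line at the level filter of 52.5. All 4 Igf1 rows and both Igfbp3 rows have the circle to the right, and all 6 Igfbp4 rows have it to the left.

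Both ligands were higher in shLrrfip1a cells, by similar amounts on their representing probe sets. Igf1 was read by 4 probe sets, with intensities of 1163, 1092, 614 and 381 in shLrrfip1a cells against 581, 593, 362 and 218 in control cells. All 4 probe sets were higher in shLrrfip1a cells, by 0.74 to 0.98 (mean 0.84 ± 0.11, SD over probe sets). The 4 read the same pair of RNA samples, so this SD is not a spread between cultures. Of all genes, 0.699% had a higher difference than Igf1. Igf2, the fetal growth factor that myoblasts induce on differentiation, read 635 in shLrrfip1a cells against 329 in control cells (0.92), and 0.83% of genes lay above it. Its second probe set was dim on both arrays, at 44.8 in shLrrfip1a cells and 29.2 in control cells, below the filter, and differed by 0.43 in the same direction. Igf1 and Igf2 thus lay just under the 2-fold size, at intensity ratios of 2.00 and 1.93. They passed it when the arrays were scaled to the bacterial and phage spike-in controls (1.14 and 1.07), a scaling that adds 0.16 to the difference of every gene.

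Both receptors were lower in shLrrfip1a cells, neither by as much as 1.5-fold on the representing probe set. Igf1r, the signalling receptor, read 167, 154 and 73.4 in shLrrfip1a cells against 247, 237 and 95.0 in control cells on its 3 probe sets above the filter. The differences were -0.52, -0.57 and -0.31. Its other 2 probe sets were dim, at 31.0 and 17.8 in shLrrfip1a cells against 28.1 and 19.1 in control cells, and they differed by 0.09 and -0.05. Igf2r, the clearance receptor, read 281 and 211 in shLrrfip1a cells against 368 and 239 in control cells (-0.37 and -0.17). Of all genes, 3.25% had a lower difference than Igf1r and 7.24% a lower one than Igf2r.

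Igfbp3 encodes the main IGF carrier of the circulation. Its 2 probe sets read 613 and 467 in shLrrfip1a cells against 97.9 and 83.0 in control cells. The intensity ratios were 6.27 and 5.62 and the log2 differences 2.47 and 2.29. On the gene level 0.0525% of all genes had a higher difference. The control intensities were not far above the filter level, so the pseudocount bears on the size: the brighter probe set gave 2.64 when 1 was added to each intensity and 2.06 when 64 was added.

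Igfbp2, Igfbp4 and Igfbp5 were lower on their representing probe sets. Igfbp2, a carrier with some preference for IGF2, had 1 probe set at 428 in shLrrfip1a cells against 714 in control cells (-0.72), and 1.69% of genes had a lower difference. Igfbp4, an inhibitor of IGF action that the protease PAPP-A cleaves, was lower on all 6 of its probe sets, but by very unequal amounts. A group of 3, chosen after their values were seen, was past 2-fold: they read 89.9, 61.9 and 47.8 in shLrrfip1a cells against 271, 183 and 161 in control cells (-1.44, -1.35 and -1.48). The other 3 read 198, 62.8 and 58.1 in shLrrfip1a cells against 237, 94.8 and 77.8 in control cells (-0.24, -0.49 and -0.34).

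The Igfbp4 probe set that is brightest by the mean over both arrays stands for the gene in the counts above. It has the smallest difference of the 6. On the control array alone a probe set past 2-fold was brighter, at 271 against 237. The name of the representing probe set ends in _x_at, Affymetrix's mark for probe sets with probes that can also bind other transcripts. With such probe sets left out, a choice made after seeing the data, the difference of Igfbp4 was -1.44 and 1 of 10 genes was at least 2-fold lower. The mean of all 6 probe sets was -0.89 ± 0.59 (SD over probe sets). One of the 3 probe sets past 2-fold also carries the _x_at mark, and the representing probe set and the one at -1.48 were built on the same transcript record. Which transcripts the probe sets read was not tested.

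No probe set of the remaining binding proteins reached 1.5-fold. Igfbp5, which myoblasts induce as they differentiate, read 2068 in shLrrfip1a cells against 2639 in control cells (-0.35) on its brighter probe set and 145 in shLrrfip1a cells against 140 in control cells on the other (0.04), so the direction rests on 1 probe set. Igfbp6, which prefers IGF2 over IGF1, read 1017 in shLrrfip1a cells against 716 in control cells on its 1 probe set (0.50), and 3.70% of genes had a higher difference. Igfbp7, a related secreted protein that binds the ligands weakly, was level at 4234 in shLrrfip1a cells against 4189 in control cells (0.02). Its other 2 probe sets, at 101 and 53.5 in shLrrfip1a cells against 123 and 66.3 in control cells, differed by -0.25 and -0.24.

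**Figure D2:**
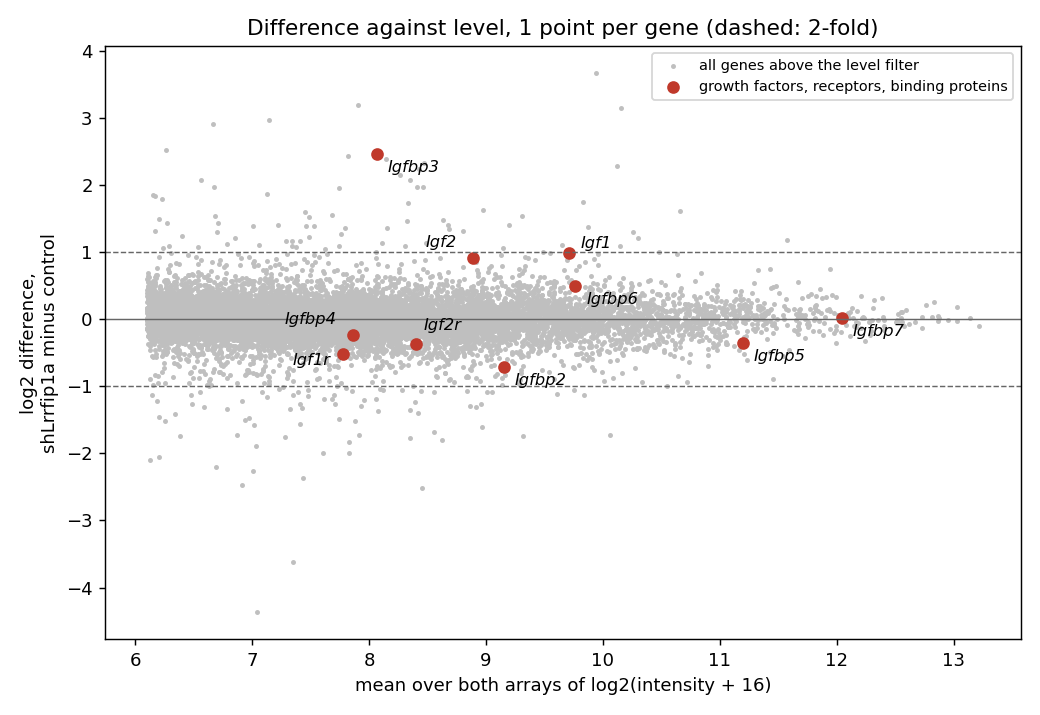
Log2 difference (shLrrfip1a minus control) against the mean log2 level for the 11439 genes above the filter, 1 point per gene, with the 10 growth factor genes in red and dashed lines at 2-fold. Igfbp3 lies at 2.47, Igf1 and Igf2 lie just below the upper line at 0.98 and 0.92, and Igfbp2 is the lowest of the 10 at -0.72.

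Counted by probe set, Igfbp3 gave 2 of 25 that were 2-fold or more higher and Igfbp4 gave 3 of 25 that were 2-fold or more lower. Of all 19456 single-gene probe sets above the filter, the shares were 0.622% and 0.576%. Probe sets of 1 gene read the same RNA samples, so they are not separate results. In addition, 1 of the 3 Igfbp4 probe sets read 47.8 in shLrrfip1a cells, below the filter level. It passed by its mean level only through the control array, at 161. Several probe sets above the filter were available for 7 of the 10 genes, and in 5 of these 7 all of them differed in 1 direction (Igf1, Igf1r, Igf2r, Igfbp3 and Igfbp4). Among all 4847 genes with several probe sets above the filter this share was 60.3%. The Igfbp4 probe sets spanned 1.24 on the log2 scale, against a median span of 0.18 over those genes, and 0.289% of them spanned as much. Of the 105 genes with 6 or more probe sets above the filter, 3 did, Igfbp4 included.

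Sequence before the transcription start is shown for Igfbp3 and Igf1, the 2 genes with the highest differences, for Igfbp2, the gene with the lowest, and for Igfbp4, chosen after seeing that 3 of its probe sets were past 2-fold lower. Each is the 250 bases before a start in the RefSeq promoter table (build GRCm38.p6), 5′ to 3′ on the gene's strand, with capitals for matches to TATAAA or to GGGCGG or to CANNTG on either strand. The windows are chr11:7213924-7214173 (minus strand) for Igfbp3, chr10:87860861-87861110 (plus strand) for Igf1, chr1:72824230-72824479 (plus strand, the first of 2 starts) for Igfbp2 and chr11:99040994-99041243 (plus strand) for Igfbp4.
Igfbp3: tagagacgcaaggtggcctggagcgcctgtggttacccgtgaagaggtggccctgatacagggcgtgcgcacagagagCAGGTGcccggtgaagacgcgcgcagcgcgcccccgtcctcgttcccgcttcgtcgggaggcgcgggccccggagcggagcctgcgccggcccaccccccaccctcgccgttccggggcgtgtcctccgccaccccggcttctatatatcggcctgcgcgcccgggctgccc
Igf1: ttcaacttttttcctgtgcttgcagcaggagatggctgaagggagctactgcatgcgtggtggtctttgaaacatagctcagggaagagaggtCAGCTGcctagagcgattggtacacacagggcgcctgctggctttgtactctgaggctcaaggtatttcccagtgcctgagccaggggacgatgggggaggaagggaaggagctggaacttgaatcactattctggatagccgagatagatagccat
Igfbp2: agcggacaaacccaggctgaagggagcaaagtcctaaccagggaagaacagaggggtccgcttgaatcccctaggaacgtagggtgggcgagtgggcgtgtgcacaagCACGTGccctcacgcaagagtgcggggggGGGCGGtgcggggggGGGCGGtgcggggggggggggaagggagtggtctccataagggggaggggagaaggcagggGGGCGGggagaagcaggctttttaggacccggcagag
Igfbp4: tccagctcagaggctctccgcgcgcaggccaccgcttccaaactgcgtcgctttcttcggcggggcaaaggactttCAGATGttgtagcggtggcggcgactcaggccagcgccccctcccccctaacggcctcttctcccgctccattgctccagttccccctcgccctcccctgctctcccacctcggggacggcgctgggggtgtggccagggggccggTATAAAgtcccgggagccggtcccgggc

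The 4 windows were compared only by these motifs and by their share of G and C. TATAAA, the core of the TATA box, lies 28 bases before the start in Igfbp4 and in none of the other 3 windows shown. GGGCGG, the GC box, occurs 3 times in the Igfbp2 window shown, at 113, 98 and 37 bases before the start. It does not occur in the windows of Igfbp3, Igf1 or Igfbp4, nor in the window of the second Igfbp2 start. CANNTG, the E-box bound by myogenic factors among others, occurs once in each of the 4, as CAGGTG at 172 bases in Igfbp3, CAGCTG at 157 in Igf1, CACGTG at 142 in Igfbp2 and CAGATG at 174 in Igfbp4. No base fell in 2 motifs. Over all 32851 windows of this length the shares with a match were 12.4% for TATAAA, 32.7% for GGGCGG and 66.2% for CANNTG.

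All 10 genes had a window, 14 in all, and 2 of the 14 held TATAAA, 6 held GGGCGG and 9 held CANNTG. The share of G and C was 73.2% in Igfbp3, 69.2% in Igfbp4, 67.2% in Igfbp2 and 52.8% in Igf1, beside a median of 52.4% over all windows. Igfbp3 and Igf1, both higher in shLrrfip1a cells, lay at opposite ends of that range. The window of the second Igfbp2 start, not shown, had a G and C share of 56.4%. Igf2 has 4 starts in the table, with G and C shares of 47.6% to 68.8%. For both genes the arrays do not tell which start was used. A match to these letters is a description and not a binding site.

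Other genes of the pathway were read from lists. The 2-fold counts of these lists, and of the markers further below, stand beside shares of all genes of 0.664% higher and 0.691% lower. Among insulin genes, 0 of 3 above the filter reached 2-fold: the insulin receptor Insr, which can pair with IGF1R, read 127 in shLrrfip1a cells against 188 in control cells (-0.51; 0.14 for the highest of its probe sets, below the filter), and Ins2 and Insrr differed by 0.21 and 0.08. Of 7 other genes with an IGF-binding-protein domain or in the circulating complex, 3 lay above the filter and 0 reached 2-fold on the representing probe set. The serine protease Htra1 read 1175 in shLrrfip1a cells against 2127 in control cells (-0.85, and -1.19 on its other probe set). Kazald1 differed by 0.43 and Htra3 by 0.21. Igfbp1, Igfals and Igfbpl1 stayed below the filter on both arrays, with intensities of 23.4 to 35.0 in shLrrfip1a cells against 18.8 to 29.8 in control cells.

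Enzymes that cleave binding proteins, and their inhibitors, differed both ways. Of 11 above the filter, the gelatinase Mmp2 was at least 2-fold higher (4564 in shLrrfip1a cells against 2017 in control cells, 1.17) and 0 were at least 2-fold lower. Timp1, an inhibitor of metalloproteinases, read 2048 in shLrrfip1a cells against 3820 in control cells (-0.89). Pappa2, a protease of Igfbp5 and Igfbp3, read 214 in shLrrfip1a cells against 357 in control cells (-0.70). The list median was -0.20. The RNA-binding Igf2bp1 read 80.5 in shLrrfip1a cells against 90.8 in control cells (-0.15).

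Signalling genes below the receptor mostly differed by less than 2-fold. Of 15 receptor substrates and adaptors above the filter, 3 lay above 0 and 12 below (median -0.08, beside 0.0043 over all genes). Of these 15, 0 reached 2-fold in either direction. The largest differences were those of the adaptor Gab2 (-0.54), the receptor inhibitor Grb14 (0.54) and Irs2 (55.2 in shLrrfip1a cells against 86.6 in control cells, -0.53), while Gab2 and Grb14 each had a dimmer probe set of the opposite sign (0.13 and -0.05). Of 29 genes of the PI3-kinase, AKT and mTOR pathway 1 was at least 2-fold higher and 0 lower, with a median of 0.01. It was Pik3r3, a regulatory subunit of PI3-kinase, at 439 in shLrrfip1a cells against 162 in control cells (1.35). Another regulatory subunit, Pik3r1, read 1038 in shLrrfip1a cells against 517 in control cells (0.98, higher on all 4 probe sets, by 0.49 to 1.09). The translation inhibitor Eif4ebp1 differed by -0.44, lower on all 3 probe sets.

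Of 18 FoxO target genes, which AKT signalling represses, 6 lay above 0 and 12 below. Their median was -0.17, beside 0.0043 over all genes, and whether AKT signalling differed was not tested. Of the 18, 0 were at least 2-fold higher and 1 was at least 2-fold lower. It was Bnip3, a mitophagy receptor that hypoxia also induces, at 570 in shLrrfip1a cells against 1929 in control cells (-1.73). The muscle ubiquitin ligase Fbxo32 read 224 in shLrrfip1a cells against 380 in control cells (-0.72, and lower on all 3 probe sets), and the cyclin Ccng2 differed by -0.59. Other targets lay nearly as far in the opposite direction, chosen here after their values were seen: the catalase gene Cat at 0.54, Sesn3 at 0.53 and the muscle ubiquitin ligase Trim63 at 0.52. Of 5 genes of growth hormone and STAT5 signalling, the route that induces Igf1 in liver, 0 reached 2-fold (median 0.28). The feedback gene Cish, the kinase gene Jak2 and the receptor gene Ghr differed by 0.31, 0.30 and 0.28.

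**Figure D3:**
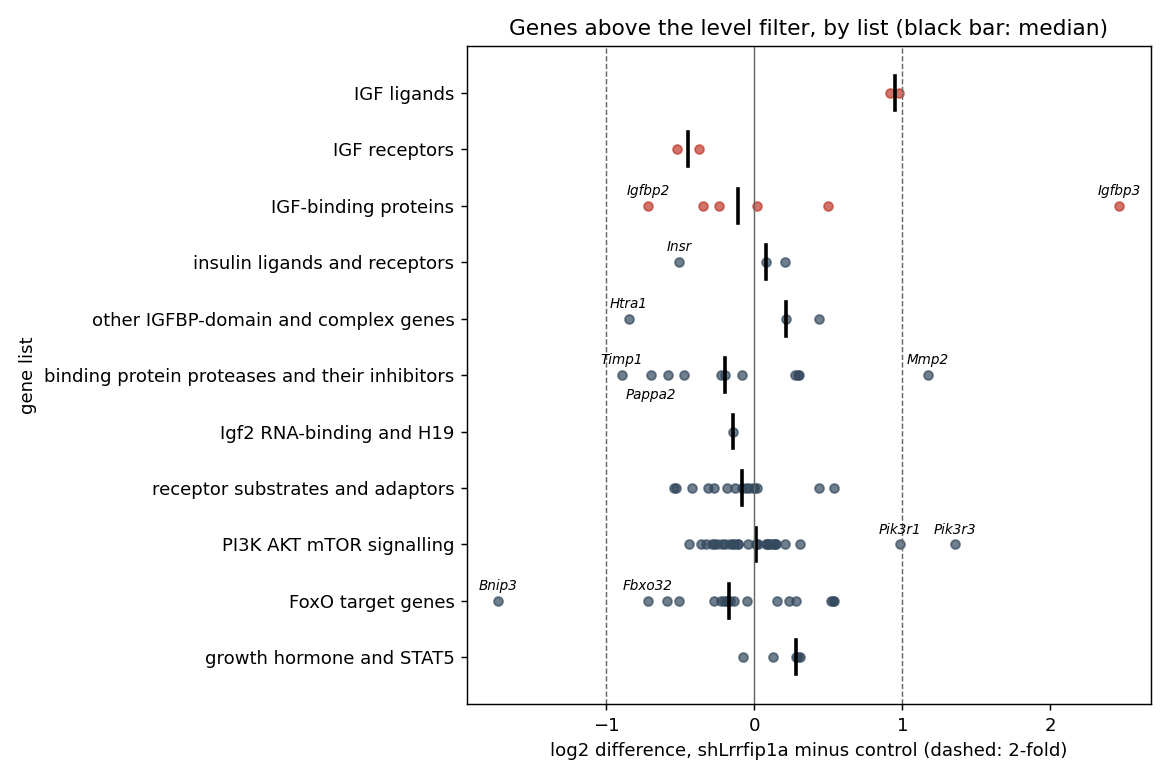
Log2 difference (shLrrfip1a minus control) of the genes above the level filter in the 3 groups of growth factor genes (red) and 8 pathway lists (blue), with a black bar at each median and dashed lines at 2-fold. Outside the red groups 3 genes lie past the lines, Mmp2 at 1.17, Pik3r3 at 1.35 and Bnip3 at -1.73.

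Of 9 myotube markers 8 lay above the filter and 0 reached 2-fold (median -0.10), with Myog at -0.38, Ckm at 0.38 and Mybph at -0.38. Among myoblast markers, Myf5 differed by -0.83 and Myod1 by 0.56, and Pax7 was below the filter (22.6 in shLrrfip1a cells against 70.4 in control cells). Of 6 fibroblast markers above the filter 2 were at least 2-fold higher, Dcn (3.67, and 0.72 on a probe set below the filter) and Fbln1 (1.73, with 0.31 on its lowest probe set). Of the 6, 3 lay above 0 and 3 below, with a median of 0.0092. The collagen and receptor genes Col3a1, Col1a2, Pdgfra and Col1a1 differed by 0.05, -0.03, -0.35 and -0.42. A second Pdgfra probe set above the filter differed by 0.20, in the opposite direction. The summed intensity of the 7 measured fibroblast markers was 20650 in shLrrfip1a cells and 17438 in control cells. Within that sum, Dcn alone read 3497 in shLrrfip1a cells against 260 in control cells, so the sum does not describe the markers as a class. Of 4 osteoblast markers measured, 2 were above the filter, Omd (3.19) and Alpl (0.32), and the sum was 853 in shLrrfip1a cells and 180 in control cells. Most of that sum's difference was Omd alone, at 710 in shLrrfip1a cells against 63.3 in control cells. The other markers Sp7 and Ibsp stayed below the filter.

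Endothelial markers summed to 197 in shLrrfip1a cells and 115 in control cells, with Kdr at 1.07 and the other 3 below the filter. Kdr alone read 118 in shLrrfip1a cells against 48.0 in control cells, the latter below the filter level. Adipocyte markers summed to 271 in shLrrfip1a cells and 247 in control cells (Cebpa 0.19, the other 4 below the filter). Macrophage markers summed to 241 in shLrrfip1a cells and 236 in control cells (Adgre1 0.0053 and Csf1r 0.0023, the other 2 below the filter). No marker was at the array's floor of 1 on its representing probe set. The part of these markers in the differences of the growth factor genes was not tested.

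The differences of the 10 genes were recomputed under other scalings, pseudocounts and choices of probe set. Both ligands stayed higher and both receptors lower under each of the 8, and the largest spread was that of Igfbp4, from -1.44 to -0.08.

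**Figure D4:**
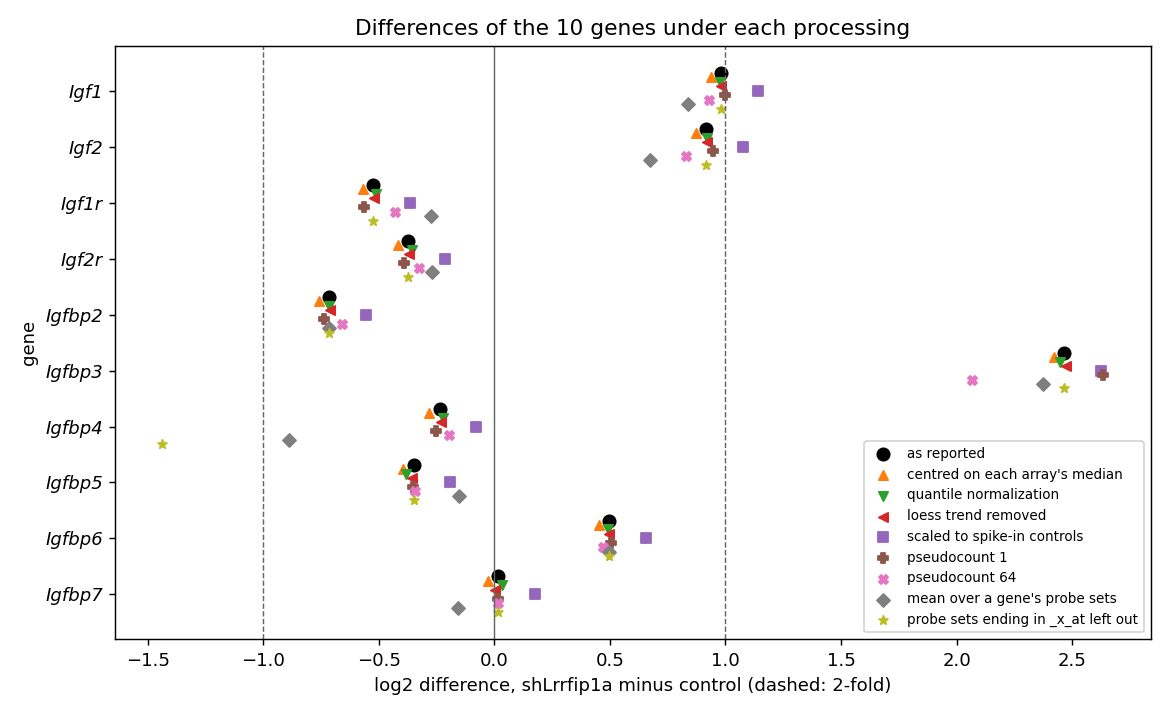
Log2 difference (shLrrfip1a minus control) of each of the 10 genes as reported (black) and under 8 other ways of processing, with dashed lines at 2-fold. Igfbp3 stays between 2.06 and 2.64, Igfbp4 runs to -1.44, and Igfbp7 is the 1 gene whose values lie on both sides of 0.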

How the data were processed

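Total RNA of 1 shLrrfip1a and 1 control culture was read on Affymetrix mouse arrays, from 6 ug of RNA per the labels' protocols. The authors deposited 1 linear intensity per probe set and array, and their summary method, background correction and scaling are not stated in the labels. Probe sets were named through the platform annotation, and all 10 genes matched the GRCm38.p6 gene table by identifier. Differences were computed on log2(intensity + 16) with the deposited scaling, and genes were counted by size (2-fold, also 1.5-fold). No test was run, since each group has 1 array, whose number limits the precision. The alternatives were median, quantile, loess and spike-in scaling, pseudocounts of 1 and 64, the mean over probe sets, other level filters, other sizes and, chosen after seeing the data, the removal of _x_at probe sets. Named were all probe sets of the 10 genes and of Lrrfip1, every list gene at least 2-fold different above the filter, and the 3 largest differences of each list. No genes were named for a like pattern, because over 2 arrays any pair correlates at 1 or -1. The genes and lists were chosen with earlier results of these data known. The counting was tested on simulated data. Python 3.11.15, numpy 2.4.6, pandas 2.3.3 and statsmodels 0.14.6 were used.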

Additional observations from a re-analysis of the deposited data

How the results depend on the processing

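With 1 array per group no replicate could be left out. No paired analysis was possible because the design holds 1 array of each kind. The count of growth factor genes at least 2-fold higher, 1, came to 3 with spike-in scaling and 3 at 1.5-fold. The median of the 10 genes turned from -0.11 to 0.05 with spike-in scaling. The count at least 2-fold lower, 0, came to 1 at 1.5-fold (Igfbp2) and to 1 without _x_at probe sets (Igfbp4). Over all genes the count higher, 76, came to 116 with spike-in scaling, 48 with the 75th percentile filter, 268 at 1.5-fold and 28 at 3-fold. The count lower, 79, came to 44 with a pseudocount of 64, 46 with the 75th percentile filter, 282 at 1.5-fold and 23 at 3-fold. Over the 8 alternatives for single genes, 9 of the 10 genes kept their direction. Igfbp7, at 0.02, turned to -0.03 with median centring and to -0.16 with the mean over probe sets. That mean moved Igf2 to 0.67, Igf1r to -0.27, Igfbp4 to -0.89 and Igfbp5 to -0.15, since it takes in dim probe sets and those that differ from the brightest. Without detection calls in the files used, no gene below the filter was taken as absent.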

Other observations

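The genes next to the growth factor genes on the chromosome, by the order of protein-coding genes in the GRCm38.p6 table, were also read. Igfbp3 lies beside Igfbp1, which was below the filter at 23.4 in shLrrfip1a cells against 18.8 in control cells, and beside Tns3, which differed by -0.08. Igf2 lies between Mrpl23 (-0.44) and Ins2 (0.21). Igfbp2 and Igfbp5 are neighbours and differed by -0.72 and -0.35. Synm, the intermediate filament gene beside Igf1r, read 288 in shLrrfip1a cells against 84.5 in control cells (1.60), while Igf1r itself differed by -0.52. These neighbours were looked up after the data were seen, and no test was made of position.

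Further probe sets read other transcripts of these loci. The antisense gene Igf2os read 53.2 in shLrrfip1a cells against 58.2 in control cells (-0.10). Both readings were close to the filter level of 52.5. The size of the difference was below the pooled SD of 0.17 between probe sets of 1 gene, so no direction is read from it. Igf1os was below the filter at 21.4 on both arrays. A probe set shared by Igf2r and the noncoding Airn, left out of the counts because it carries 2 symbols, read 54.4 in shLrrfip1a cells against 65.6 in control cells (-0.21).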
